A study of Danio rerio with 6 samples.

Results

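Collagen genes were followed through the cells of the adult zebrafish ventricle before and after amputation. They were chosen by name, as the rows of the deposited feature list whose symbol is col, a number, a, a number and any suffix. The rule found 56 of 27771 features, under 54 distinct symbols, since col6a3 and col19a1 each stand for 2 identifiers. Both col4a3bpa and col4a3bpb meet the rule by spelling but are symbols of a binding protein, so 54 rows under 52 symbols are collagen chains. The study made single-cell RNA libraries (10x Genomics 3' kit) from wild-type fish (WT) and from fish labelled clofv087b/+, heterozygotes for an allele of cloche (het), at 3 stages. Of each genotype, 1 library came from uninjured hearts (called sham in the titles and untreated in the treatment label), 1 from hearts 3 days post amputation (3 dpa) and 1 from hearts 7 days post amputation (7 dpa). Every library pooled 15 ventricles from adult fish, digested with protease for 3 h at 4 °C and sorted for single cells after Hoechst staining. About 12000 cells at a viability above 85% were loaded for each library. With 1 library in each group there is no spread between replicates: no difference below has a replicate check, no p-value is given, and the intervals are exact 95% intervals that cover counting error only.

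Collagens are the main structural proteins of the extracellular matrix. Each molecule is a triple helix of chains that can come from different genes, type I from col1a1a, col1a1b and col1a2 in the zebrafish, type IV from pairs such as col4a1 and col4a2. Fibrillar collagens (types I, II, III, V, XI, XXIV and XXVII) form banded fibrils, fibril-associated collagens such as type XII decorate them, type VI forms beaded filaments, and type IV is the network of basement membranes under endothelium and around muscle and mural cells. In the injured zebrafish heart a collagen-containing scar forms at the wound and is later resolved as muscle regrows, and epicardial cells and fibroblasts are known sources of its matrix.

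The 6 libraries held 63752936 to 117947578 UMIs (unique molecular identifiers, each a counted transcript end) and 69400 barcodes, of which 58773 were kept as cells. Medians were 4268 to 7612 UMIs a cell, with the 3 lowest in het, and the median mitochondrial share was 3.42 to 8.73%, highest at 3 dpa. Pairs of libraries shared 23 to 60 barcodes, 0.237 to 0.476% of the smaller one. The gene npas4l, which is mutated in cloche, had 20 to 64 UMIs a library, and its het over WT log2 ratios of -0.56 (-1.40 to 0.23), -0.01 (-0.61 to 0.58) and 0.24 (-0.41 to 0.89) at the 3 stages all had intervals that include 0, so its counts do not check the genotype labels. Cell classes were rebuilt by clustering without the collagen genes and named from fixed marker lists, so the names end in -like. The lists contain no collagen, so collagen levels themselves did not form the classes. The epicardium or fibroblast list does hold other matrix genes, dpt, lum, dcn and postnb among them, so its collagen level is not independent of the naming. Unnamed clusters held 25% of the cells, the largest of these clusters having 7855 cells with a median of 711 UMIs.

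Epicardium- or fibroblast-like cells, named from a list that includes tcf21, tbx18, dpt and pdgfra, carried most of the collagen RNA. They made up 10.1% of the kept cells and held 86.4% of all 1053353 collagen UMIs. Endothelial-like cells held 5.90% with 11.6% of the cells, mural-like cells 2.09% with 2.07% of the cells, and the unnamed clusters 3.30%. The share of the epicardium- or fibroblast-like class of a library's collagen UMIs was, for WT, 41.0% at sham, 95.8% at 3 dpa and 83.4% at 7 dpa, and for het 50.3, 94.6 and 82.9%. It was thus lowest in both sham libraries, where the class also had the fewest cells, 429 in WT and 529 in het, against 840, 1397, 845 and 1873 after injury. The libraries differ in how many cells of each class were recovered, so the levels below are CPM, the UMIs of a gene per 1000000 UMIs of the same class in the same library. UMIs are counted at transcript ends and were not divided by length, so levels of different genes can be set side by side on that scale only as transcript ends.

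None of the 56 collagen genes was without a UMI. Over all kept cells, 14 had at least 10000 UMIs, 25 at least 1000, another 16 fewer than 1000 but at least 50, and 15 fewer than 50. The most abundant were col1a2 (ENSDARG00000020007) with 194123 UMIs, col1a1b (ENSDARG00000035809) with 177055 and col5a1 (ENSDARG00000012593) with 159836, together 50.4% of the total. The first 12 held 93.6%, and the other 9 of these were col1a1a, col12a1a, col6a3 (ENSDARG00000077139), col4a1, col5a2a, col6a1, col6a2, col4a2 and col12a1b. By family, the fibrillar genes held 727161 UMIs, the beaded-filament genes of type VI 136575, the fibril-associated genes 89928, the basement-membrane genes of type IV 76900 and the multiplexins of types XV and XVIII 17143. The network-forming types VIII and X held 1692, the anchoring-fibril type VII 135, the transmembrane types 49 and type XXVIII 91. The transmembrane family was led by col17a1b, a collagen of epithelial attachment in mammals, at 46 UMIs in all. Of the 2 binding-protein symbols, named for a protein that binds type IV collagen, col4a3bpb was highest in neutrophil-like cells (13.6 CPM, on 13 UMIs). Macrophage-like cells came next (9.03 CPM), and col4a3bpb was their highest member.

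Among the named classes, 26 of the 41 members with at least 50 UMIs were highest in epicardium- or fibroblast-like cells, 5 in glia-like, 3 in mural-like, 3 in neutrophil-like, 2 in endothelial-like and 1 each in B-like and erythrocyte-like cells. For 6 of these members the highest class rested on fewer than 10 UMIs, so that it is not established, namely 1 UMI each for col9a1a in B-like, col10a1b in erythrocyte-like, col4a4 in glia-like and col7a1 in neutrophil-like cells, 6 for col28a1b in glia-like cells and 9 for col9a3 in epicardium- or fibroblast-like cells. The unnamed clusters were left out of this ranking, and several members read higher there than in any named class. In unnamed cluster 14 col9a2 read 52.6 CPM, against 12.2 in glia-like cells, and col2a1b 29.2, against 6.25 in epicardium- or fibroblast-like cells. In unnamed cluster 25 col4a6 read 10.9 CPM, against 3.09 in mural-like cells, and col19a1 (ENSDARG00000076163) 6.73, against 0.663 in endothelial-like cells. The gap to the next named class differed widely between genes. Pooled over libraries, col1a2 read 2905 CPM in epicardium- or fibroblast-like cells against 461 in mural-like cells, the next class, a 6.31-fold gap, and col1a1b read 2610 against 412. For col5a1 the gap was 10.5-fold over endothelial-like cells, for col12a1a 22.9-fold and for col11a1a, a chain of the minor fibrillar type XI, 49.1-fold. At the other end, col6a4a read 149 CPM against 121 in mural-like cells and col4a1 read 407 in endothelial-like and 406 in mural-like cells, so these genes were shared between classes. For col4a2, mural-like cells read 314 CPM and epicardium- or fibroblast-like cells 269.

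**Figure D1:**
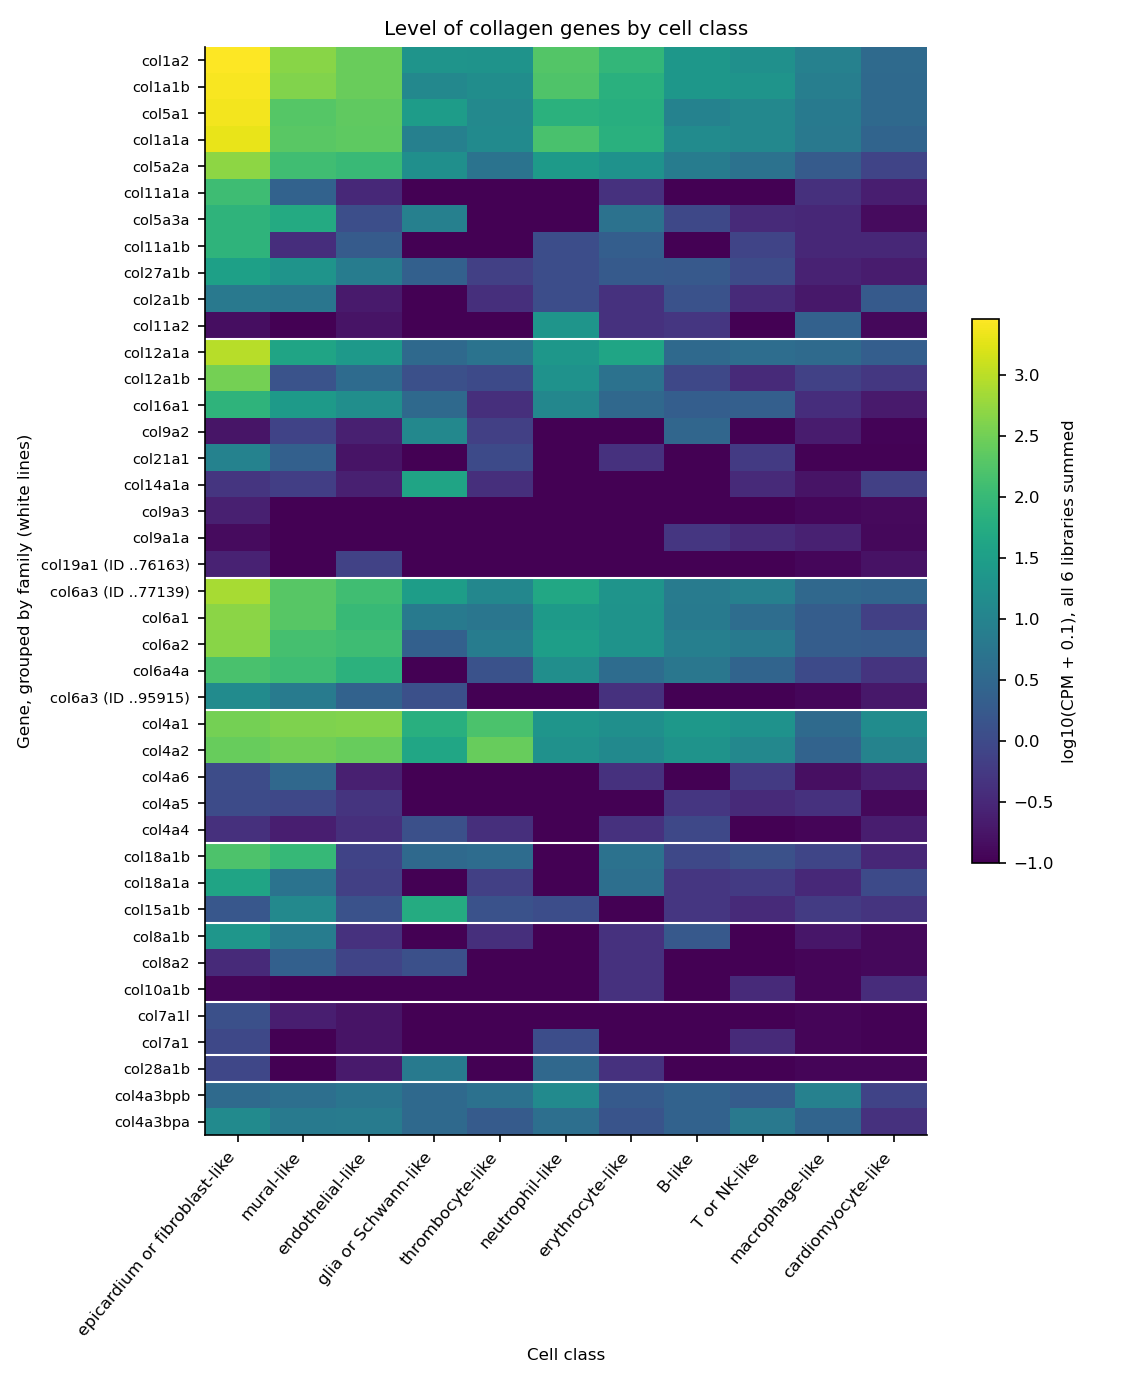
Level of each of the 41 collagen genes with at least 50 UMIs in the named cell classes, all libraries pooled (colour, log10 of CPM with a small constant added), with families set apart by white lines. The fibrillar genes stand out in epicardium- or fibroblast-like cells (col1a2 at 2905 CPM), while col4a1 and col4a2 are spread over endothelial-like, mural-like and epicardium- or fibroblast-like cells.

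In epicardium- or fibroblast-like cells all collagen genes together read 3949 CPM at sham, 17890 at 3 dpa and 15136 at 7 dpa in WT, and 6208, 16342 and 15075 CPM in het. Both sham libraries were thus lowest, het sham was above WT sham, and the injured libraries of the 2 genotypes lay close together. The same sums made up 0.395, 1.79 and 1.51% of the class's UMIs for WT and 0.621, 1.63 and 1.51% for het. The log2 ratio of 3 dpa over sham stood at 2.18 (interval 2.15 to 2.21) for WT and 1.40 (1.38 to 1.42) for het, and that of 7 dpa over sham was 1.94 (1.91 to 1.97) and 1.28 (1.26 to 1.30). The 3 dpa and 7 dpa ratios of a genotype share its sham library, so they are not independent. The 3 cells with the most collagen held 8.65 and 7.88% of the class's collagen UMIs at sham in WT and het and 2.86 to 3.39% in the injured libraries, and without them the sham sums were 3661 and 5820 CPM.

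Counted gene by gene, with at least 50 UMIs over both libraries of a pair, 14 of 26 collagen genes were at least 2-fold higher at 3 dpa than at sham in WT and 4 at least 2-fold lower, against 43.8 and 9.21% of all genes of the class. In het, 11 of 26 were higher and 3 lower, against 40.6 and 9.51%. At 7 dpa, 19 of 25 were higher and none lower in WT, against 20.2 and 5.25% of all genes, and 13 of 26 were higher and none lower in het, against 13.2 and 3.21%. The share of collagen genes past 2-fold was thus close to that of all genes at 3 dpa and above it at 7 dpa. The median log2 ratio of the members was 1.18 in WT and 0.78 in het at 3 dpa, beside 0.81 and 0.70 over all genes, and 1.61 and 1.01 at 7 dpa, beside 0.33 and 0.19. Some of these members had so few UMIs at sham that they could pass the minimum only by reading higher after injury: col11a1a and col11a1b in all 4 comparisons, col12a1b in both of WT and col2a1b at 7 dpa in WT. Without them 11 and 9 members were at least 2-fold higher at 3 dpa in WT and het, and 15 and 11 at 7 dpa. The shares of all genes were not counted without such genes, so these smaller counts cannot be set against them. Scaling by TMM (a trimmed mean of gene ratios) in place of CPM moved the median of all genes by -0.49 and -0.40 at 3 dpa in WT and het and by -0.17 and -0.08 at 7 dpa. The counts were then 11 higher and 4 lower, 8 and 3, 17 and 0, and 12 and 0 in the same order. The share of all genes past 2-fold was not counted on the TMM scale, so these counts have no like share beside them. The TMM medians of the members were 0.69 and 0.39 at 3 dpa in WT and het, beside 0.31 and 0.31 over all genes. At 7 dpa they were 1.44 and 0.93, beside 0.16 and 0.11.

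The make-up of the class's collagen also differed between stages. Fibrillar genes held 57.0, 76.4 and 68.4% of its collagen UMIs at sham, 3 dpa and 7 dpa in WT and 62.6, 75.7 and 69.1% in het. Fibril-associated genes held 2.14, 12.8 and 6.23% in WT and 2.22, 10.9 and 6.39% in het, highest at 3 dpa in both. Type IV genes went the other way, with 14.3, 1.44 and 6.45% in WT and 11.9, 2.28 and 6.19% in het, as did the multiplexins with 4.96, 0.452 and 2.26% in WT and 4.36, 0.722 and 2.09% in het. Type VI held 20.8, 8.78 and 16.3% in WT and 18.4, 10.2 and 15.8% in het.

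Among the fibrillar genes, those of type I, the bulk collagen of scar and skin, were abundant in every library. The chain gene col1a2 read 596, 3204 and 3192 CPM at sham, 3 dpa and 7 dpa in WT and 1076, 3083 and 3209 in het. Its partner col1a1a (ENSDARG00000012405) read 498, 2235 and 2378 CPM in WT and 837, 2115 and 2368 in het. The second alpha-1 gene, col1a1b, read 718, 3353 and 2488 CPM in WT and 1333, 2520 and 2648 in het. All 3 were lowest at WT sham, next at het sham, and at a plateau after injury in which 3 dpa and 7 dpa lay close together for col1a1a and col1a2. The log2 ratio of 3 dpa over sham was 2.43 for col1a2, 2.17 for col1a1a and 2.22 for col1a1b in WT, and 1.52, 1.34 and 0.92 in het. At 7 dpa over sham they were 2.42, 2.26 and 1.79 in WT and 1.58, 1.50 and 0.99 in het. The genes of such a duplicated pair are alike in sequence, and how the authors' counting treated reads that could come from either was not given in the sources used here, so the split between them is uncertain.

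Type V collagen is a minor partner of type I that controls the width of its fibrils. The gene col5a1 read 292, 3700 and 1656 CPM in WT and 432, 3591 and 1547 in het. It was highest at 3 dpa in both genotypes, above col1a2 there, and lower again at 7 dpa, where col1a2 stood at its 3 dpa level. The log2 ratio of 3 dpa over sham came to 3.66 (3.57 to 3.76) for WT and 3.05 (2.99 to 3.12) for het, and that of 7 dpa over sham was 2.50 (2.41 to 2.60) and 1.84 (1.77 to 1.91). Its helix partner col5a2a (ENSDARG00000031678) read 101, 698 and 386 CPM in WT and 149, 660 and 420 in het, with the same order of stages. The third chain, col5a3a (ENSDARG00000098294), read 24.8, 78.6 and 84.6 CPM in WT and 30.6, 115 and 73.0 in het, so its highest stage differed between the genotypes. Transcript ends of col5a1 per transcript end of col1a2 were 0.490, 1.15 and 0.519 in WT and 0.402, 1.16 and 0.482 in het, more than 2 times as many at 3 dpa as at either other stage.

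Type XI genes, known best from cartilage, were almost absent from the class at sham. No UMI of col11a1a (ENSDARG00000026165) was counted in either sham library, and its level was 262 and 19.6 CPM at 3 and 7 dpa in WT and 186 and 15.8 in het. Against a floor of 3 UMIs in the sham library, the 3 dpa log2 ratio was at least 8.06 in WT and at least 8.0 in het, and the 7 dpa ratio at least 4.33 and at least 4.44. Its paralog col11a1b (ENSDARG00000009014) had 3 UMIs in each sham library, 0.977 and 0.729 CPM, and then read 109 and 97.5 CPM in WT and 56.7 and 89.0 in het. For col11a1b, 3 dpa over sham gave a log2 ratio of 6.80 (5.25 to 9.08) for WT and 6.28 (4.73 to 8.56) for het. The pair thus differed in time: col11a1a was far lower at 7 dpa than at 3 dpa, while col11a1b was higher at 7 dpa in het and close to its 3 dpa level in WT. Of the other fibrillar genes, col27a1b read 14.7, 28.4 and 43.2 CPM in WT and 19.7, 40.6 and 37.8 in het, and col2a1b, a cartilage-type chain, stayed between 2.61 and 7.38 CPM.

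Type XII collagen bridges fibrils and is expressed in the wound of the regenerating heart and fin. The gene col12a1a (ENSDARG00000078322) read 31.6, 1533 and 708 CPM in WT and 62.2, 1184 and 722 in het. The log2 ratio of 3 dpa over sham came to 5.60 (5.31 to 5.90) for WT and 4.25 (4.07 to 4.43) for het, and that of 7 dpa over sham was 4.49 (4.20 to 4.79) and 3.54 (3.36 to 3.72). Part of that gap between genotypes lies at sham, where 1 het cell held 35.2% of the gene's 256 UMIs. Its paralog col12a1b (ENSDARG00000019601) read 1.95, 668 and 131 CPM in WT and 5.84, 514 and 129 in het, the sham values resting on 6 and 24 UMIs. The 3 dpa over sham log2 ratio of col12a1b reached 8.42 (7.30 to 9.86) for WT and 6.46 (5.89 to 7.10) for het, and 66.7% of its het sham UMIs came from 1 cell. The other fibril-associated genes differed less: col16a1 (ENSDARG00000009194) read 42.3, 72.5 and 90.6 CPM in WT and 58.8, 72.8 and 99.5 in het, and col21a1 between 6.98 and 12.7.

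Type VI collagen forms beaded filaments close to cell surfaces, from a chain of col6a1, one of col6a2 and one of col6a3 or a related gene. The gene col6a1 (ENSDARG00000074908) read 184, 411 and 648 CPM in WT and 270, 477 and 623 in het. For col6a2 (ENSDARG00000061436) the values were 152, 350 and 661 CPM in WT and 233, 390 and 659 in het. For the abundant col6a3 row (ENSDARG00000077139) they were 393, 664 and 955 CPM in WT and 512, 652 and 904 in het. All 3 were ordered sham, 3 dpa, 7 dpa in both genotypes, with 7 dpa over sham log2 ratios of 1.81, 2.12 and 1.28 in WT and 1.21, 1.50 and 0.82 in het. The related col6a4a (ENSDARG00000079752) read 86.6, 130 and 184 CPM in WT and 111, 144 and 177 in het. At 3 dpa in het the log2 ratios over sham of col6a3, col6a4a and col16a1 were 0.35, 0.37 and 0.31 on the CPM scale and -0.05, -0.03 and -0.09 after TMM scaling, so they give no direction there. The second col6a3 row (ENSDARG00000095915) stayed between 7.16 and 17.6 CPM.

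**Figure D2:**
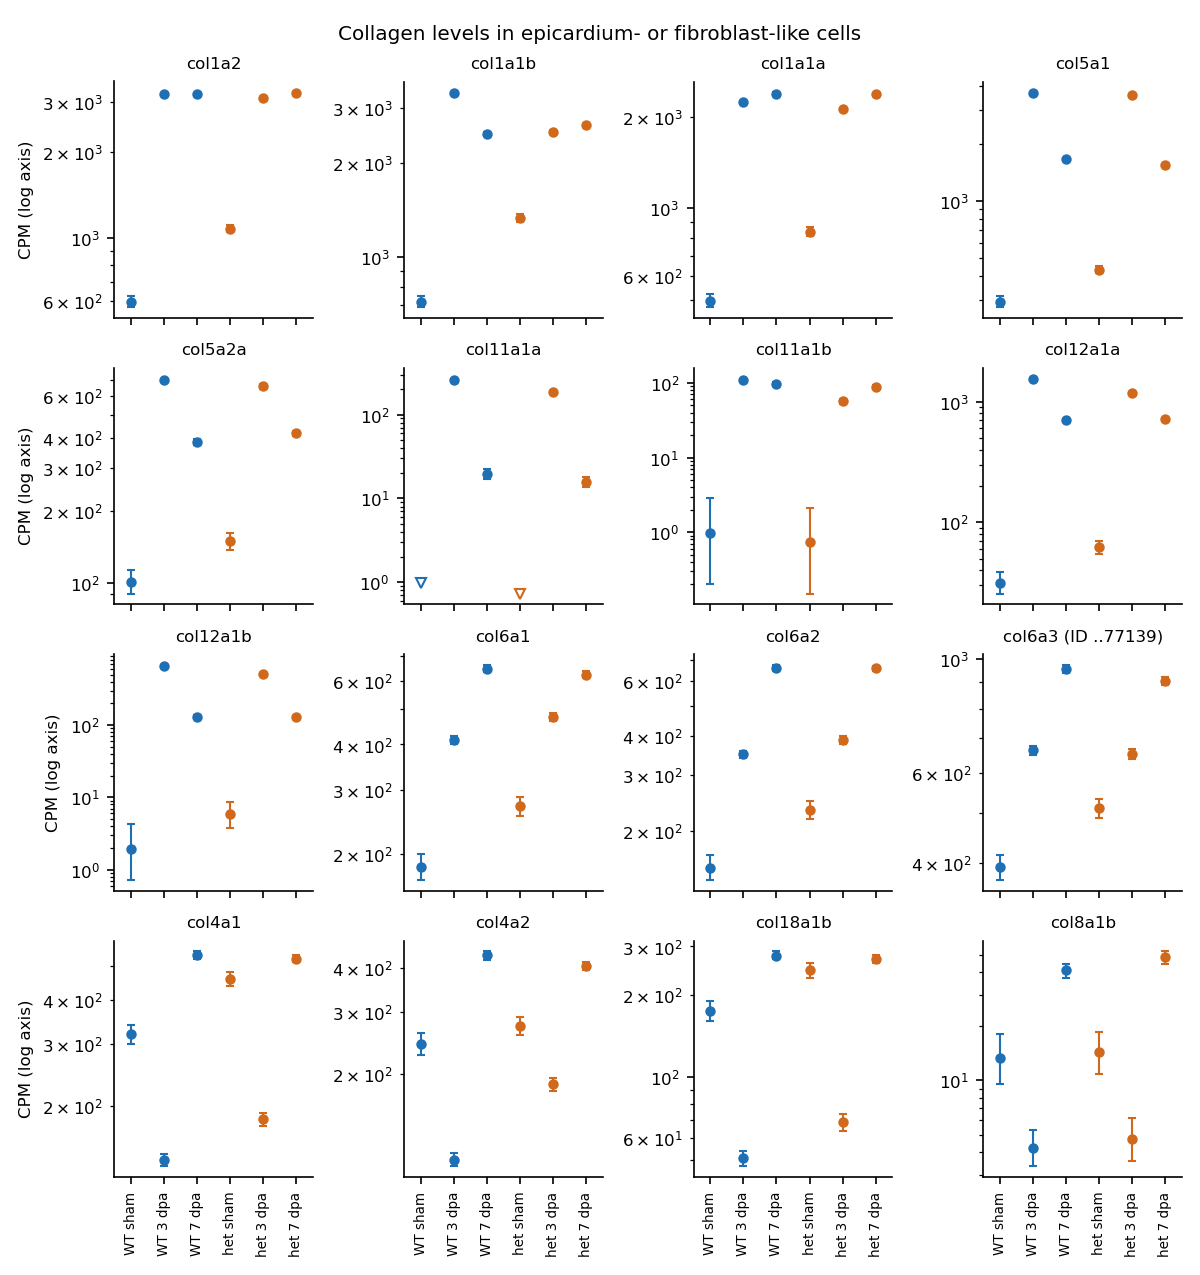
Levels of collagen genes in epicardium- or fibroblast-like cells in each of the 6 libraries, in UMIs per 1000000 UMIs of the class on a log axis, with exact 95% intervals for counting error; open triangles mark the floor of 3 UMIs where a library had none. Type I genes stay high from 3 to 7 dpa (col1a2 at 3204 and 3192 in WT), col5a1 and col12a1a are highest at 3 dpa, and col4a1 is lowest at 3 dpa (141 in WT and 184 in het).

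Basement-membrane genes and 2 collagens of related matrices were lower at 3 dpa than at sham in the class as a whole. The type IV gene col4a1 (ENSDARG00000055009) read 321, 141 and 538 CPM in WT and 461, 184 and 525 in het. Its helix partner col4a2 (ENSDARG00000104110) read 244, 114 and 435 CPM in WT and 274, 187 and 406 in het. The multiplexin col18a1b (ENSDARG00000095901), whose mammalian counterpart is the source of endostatin, read 174, 50.6 and 278 CPM in WT and 246, 68.4 and 271 in het. The network collagen col8a1b (ENSDARG00000003533) read 13.4, 4.23 and 40.8 CPM in WT and 14.3, 4.74 and 48.2 in het. In each of the 4 the 3 dpa library was the lowest and the 7 dpa library the highest of its genotype. The log2 ratio of 3 dpa over sham was -1.19 and -1.33 for col4a1, -1.10 and -0.55 for col4a2, -1.78 and -1.85 for col18a1b and -1.66 and -1.60 for col8a1b, in WT and het. Those of 7 dpa over sham were 0.75 and 0.19, 0.84 and 0.57, 0.67 and 0.14, and 1.61 and 1.75. The paralog col18a1a (ENSDARG00000036558) did not share the dip, with 20.5, 29.0 and 62.8 CPM in WT and 20.9, 48.3 and 42.7 in het. The dip was smaller or turned inside the clusters present at all 3 stages, as described with the clusters below. Averaged over these with the same cluster weights in every library, the 3 dpa over sham log2 ratios in WT and het were 0.33 and -0.22 for col4a1, 0.45 and 0.64 for col4a2, 0.51 and -0.17 for col18a1b and -0.14 and -0.32 for col8a1b, and that of col18a1a at 7 dpa over sham in het was -0.03 in place of 1.03.

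The rest of the family was scarce in these cells. The anchoring-fibril gene col7a1l read 0.286 to 2.67 CPM in each library, with 81.6% of its 76 UMIs in 1 of the class's clusters. No library of the class had col28a1b above 1.88 CPM.

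**Figure D3:**
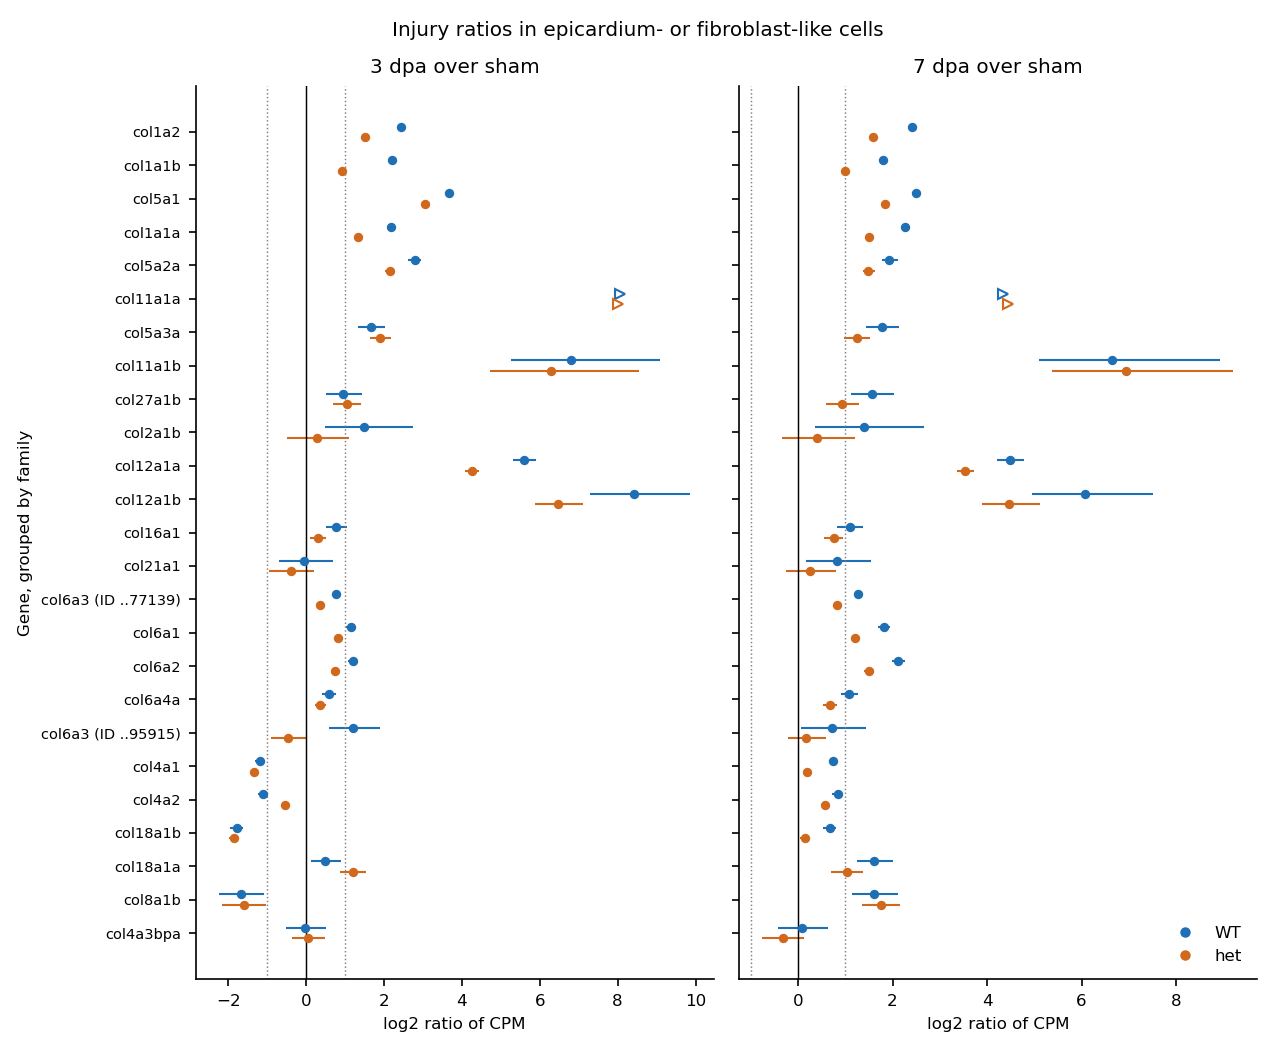
Log2 ratios of 3 dpa over sham and 7 dpa over sham in epicardium- or fibroblast-like cells for collagen genes with at least 50 UMIs in each of the 4 pairs of libraries, WT and het side by side, with exact 95% intervals for counting error and open triangles as lower bounds where the sham library had no UMI. Dotted lines mark 2-fold. The type XI and XII genes lie farthest to the right (at least 8.06 for col11a1a at 3 dpa in WT), and col18a1b, col8a1b and col4a1 lie left of 0 at 3 dpa and right of it at 7 dpa.

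The class was made of 4 clusters whose mix changed with the stage, so the class values of the stages come from different mixes of clusters. Cluster 7, led by ccl25b, hapln1a and dpt, held 287, 262 and 445 cells in WT and 354, 387 and 688 in het. Cluster 8, led by s100a10a, tgm2b and krt15, held 138, 180 and 718 cells in WT and 172, 104 and 913 in het. Cluster 19 was found at 3 dpa, with 391 cells in WT and 352 in het against 0 at either sham and 3 and 1 at 7 dpa. Cluster 22, led by postnb, nid1b and dpt, was found at 7 dpa, with 231 cells in WT and 271 in het against 2 to 7 in each other library. At sham, cluster 7 held 70.6% of the class's collagen UMIs in WT and 73.3% in het. At 3 dpa, cluster 19 held 80.9 and 76.8%, and at 7 dpa cluster 22 held 49.9 and 45.6%.

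The 2 stage-bound clusters differed in their collagens. Cluster 19 had 18940 CPM of collagen in WT and 17029 in het, and its leading genes included col12a1b, fn1a, col12a1a, col5a1 and col11a1a, although no collagen gene was used to cluster. It held 89.9% of all col11a1a UMIs, 77.5% of col12a1b, 61.1% of col12a1a and 57.9% of col5a1. Its basement-membrane levels were low, with col4a1 at 81.4 CPM in WT and 109 in het and col18a1b at 9.66 and 13.3. Cluster 22 had 32752 CPM of collagen in WT and 35612 in het, the highest of the 4, with col1a2 at 6859 and 7577 CPM, col5a1 at 4269 and 4540, col4a1 at 1067 and 955 and col8a1b at 118 and 141. It held 46.1% of all col8a1b UMIs. Cells of cluster 19 had a median of 26328 UMIs, against 5199 in cluster 7 and 5068 in cluster 8, so they weigh heavily in a sum over the class. The summed level of the epicardium or fibroblast markers was 2094 CPM in cluster 19 and that of the mural markers 1677, against 5688 and 685 in cluster 7, and their part in the result was not tested. Before removal, 9.14% of the cells of the corresponding cluster had been called doublets, against 10.1% of all cells.

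Clusters 7 and 8, present at every stage, allow the stages to be compared within a cluster. In cluster 7 the collagen sum read 4845, 12805 and 11014 CPM in WT and 8045, 14007 and 11770 in het, and in cluster 8 it read 2260, 15509 and 9261 in WT and 3062, 15160 and 9187 in het. Sham was lowest in both clusters and genotypes, with 3 dpa over sham log2 ratios of 1.40 (WT) and 0.80 (het) in cluster 7 and 2.78 and 2.31 in cluster 8. Type I followed the sum, col1a2 at 1.80 and 0.97 in cluster 7 and 3.04 and 2.59 in cluster 8. Type XII was higher here too, col12a1a at 2.84 and 2.15 in cluster 7 and 4.48 and 3.81 in cluster 8. For col6a1 the 3 dpa ratio was 1.54 and 1.17 in cluster 7 and 3.03 and 2.78 in cluster 8, larger than the 1.16 and 0.82 of the whole class. Type XI was all but absent from cluster 7 at 3 dpa, where col11a1a read 1.87 CPM in WT and 1.08 in het.

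The dip of the basement-membrane genes at 3 dpa was smaller or turned within these clusters. In cluster 7, col4a1 read 454, 522 and 723 CPM in WT and 668, 492 and 751 in het, a 3 dpa over sham log2 ratio of 0.20 (0.06 to 0.34) in WT and -0.44 (-0.56 to -0.32) in het. For col4a2 the ratios in cluster 7 were 0.47 and 0.58, and for col18a1b 0.50 and -0.18. In cluster 8 the ratios of col4a1 were 0.77 and 0.47, of col4a2 0.41 and 0.85, and of col18a1b 0.62 and -0.06. For col8a1b in cluster 7 they were -0.43 (-1.19 to 0.31) and -0.38 (-1.02 to 0.24), so its dip was not detectable at this depth.

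**Figure D4:**
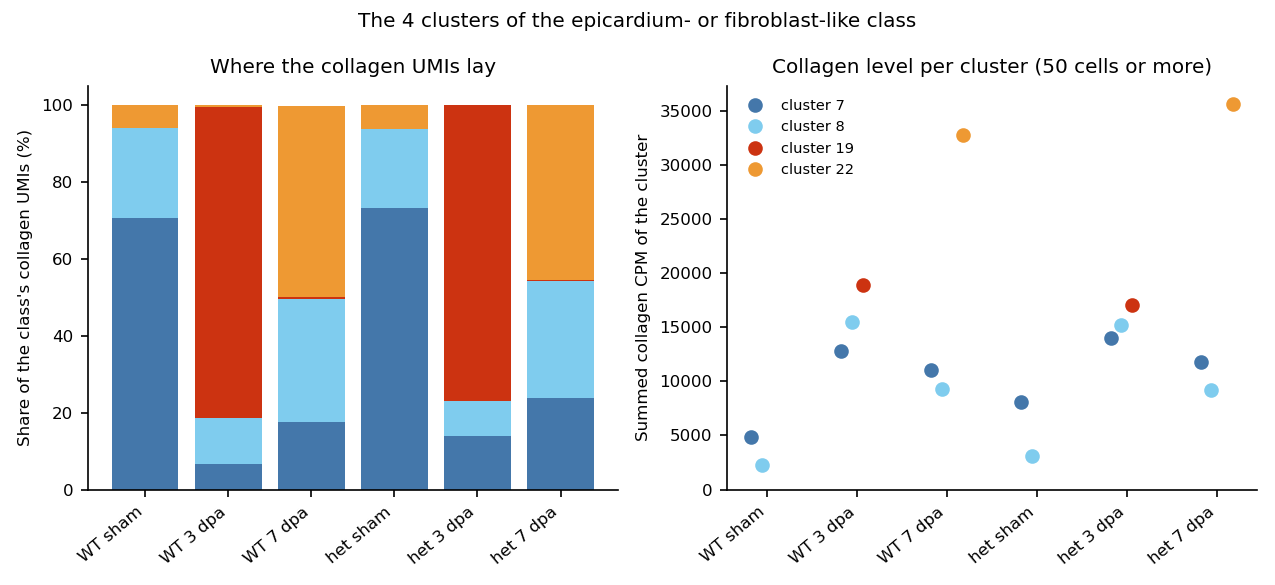
Left, share (%) of the collagen UMIs of epicardium- or fibroblast-like cells that each of the 4 clusters held in each library; right, summed level of all collagen genes in each cluster with at least 50 cells in the library, in UMIs per 1000000 UMIs of the cluster. Cluster 7 holds most at sham (70.6% in WT), cluster 19 at 3 dpa (80.9%) and cluster 22 a large share at 7 dpa (49.9%), and cluster 22 has the highest level (32752 in WT and 35612 in het), with both sham points of clusters 7 and 8 below their points after injury.

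Ratios between chains, which do not depend on the class total, differed between the stages too. Transcript ends of the 2 alpha-1 genes of type I per end of col1a2 were 2.04, 1.74 and 1.52 in WT and 2.02, 1.50 and 1.56 in het, highest at both shams. The share of the paralogs moved too, with col1a1a at 0.693, 0.666 and 0.956 of col1a1b in WT and 0.628, 0.839 and 0.894 in het. For type IV, col4a1 per col4a2 came to 1.32, 1.24 and 1.24 for WT and 1.69, 0.981 and 1.29 for het. For type VI, col6a1 per col6a2 lay between 0.946 and 1.22 in all 6 libraries.

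Between genotypes, collagen in epicardium- or fibroblast-like cells differed most at sham. At sham the log2 ratio of the sum, het over WT, was 0.65 (0.62 to 0.68), against -0.13 (-0.14 to -0.12) for the 3 dpa pair and -0.01 (-0.02 to 0.00) for the 7 dpa pair. At sham, 21 of 21 collagen genes with enough UMIs read higher in het, against 52.8% of all genes of the class, and the median log2 ratio of the members was 0.50, beside 0.03 over all genes. Only col6a3 (ENSDARG00000095915) was past 2-fold, at 15.6 CPM in het and 7.16 in WT, against 2.26% of all genes at least 2-fold higher and 4.04% at least 2-fold lower. The type I genes had log2 ratios of 0.85 (0.77 to 0.93) for col1a2, 0.89 (0.82 to 0.96) for col1a1b and 0.75 (0.66 to 0.84) for col1a1a. The difference stood in cluster 7, at 0.73 (0.69 to 0.77) for the sum, and was smaller in cluster 8, at 0.44 (0.37 to 0.50). Since no group had a second library, this difference between 2 sham pools cannot be told apart from the difference between any 2 pools of 15 ventricles.

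After injury, none of 26 collagen genes was past 2-fold between genotypes at 3 dpa or at 7 dpa, where 4.25 and 3.24% of all genes were. At 3 dpa, 14 of the 26 read higher in het and 12 lower, beside 47.7% of all genes higher, and at 7 dpa 8 read higher and 18 lower, beside 42.3% higher. The lowest at 3 dpa was col11a1b, at 109 CPM in WT and 56.7 in het, a log2 ratio of -0.94 (-1.07 to -0.81), and within cluster 19 it was -0.89 (-1.03 to -0.76). Also lower in het at 3 dpa were col11a1a at -0.49 (-0.57 to -0.42), col1a1b at -0.41 (-0.43 to -0.39), col12a1b at -0.38 and col12a1a at -0.37, while col4a2 was higher at 0.72 and col18a1a at 0.73 (0.56 to 0.91). At 7 dpa col11a1a was at -0.31 (-0.59 to -0.03), col11a1b at -0.13 (-0.25 to -0.01) and col18a1a at -0.56 (-0.72 to -0.40). The type XII genes differed in direction between the clusters at 7 dpa: col12a1a was at 0.51 in cluster 22, 0.30 in cluster 7 and -0.37 in cluster 8, and col12a1b at 0.49, 0.34 (-0.18 to 0.87) and -0.57. The genes col8a1b and col4a3bpb read higher in het at both injured stages, at 0.16 and 0.24 and at 0.29 and 0.21, and col16a1 at 0.01 and 0.14. With the same cluster weights in every library col8a1b at 3 dpa was at -0.02, and without doublet removal col4a3bpb at 7 dpa was at -0.05. These 2 values thus give no direction.

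Endothelial-like cells had lower levels, and their highest single gene over all libraries was col4a1 of type IV, the collagen of the vessel wall's basement membrane. Type IV genes held 35.1, 47.9 and 28.7% of the class's collagen UMIs in WT and 36.5, 46.6 and 21.4% in het, and fibrillar genes held 36.6, 30.3 and 48.2% in WT and 40.7, 34.8 and 62.0% in het, so type IV was ahead at 3 dpa and the fibrillar genes at sham and 7 dpa. The sum over all collagen genes read 1466, 2076 and 2326 CPM in WT and 1649, 2037 and 3654 in het. The gene col4a1 read 323, 584 and 416 CPM in WT and 367, 517 and 453 in het. Its partner col4a2 read 190, 411 and 250 CPM in WT and 234, 429 and 328 in het. Both were highest at 3 dpa in both genotypes, opposite to the epicardium- or fibroblast-like class, with 3 dpa over sham log2 ratios of 1.11 (0.95 to 1.28) in WT and 0.88 (0.73 to 1.02) in het for col4a2 and 0.85 (0.72 to 0.98) and 0.49 (0.36 to 0.62) for col4a1. For col6a4a the values were 75.6, 125 and 70.6 CPM in WT and 61.9, 125 and 65.2 in het, again highest at 3 dpa, at log2 ratios of 0.73 and 1.01. The abundant col6a3 row was lower at 3 dpa, at -0.47 and -0.85. At 3 dpa 10 of 14 collagen genes read higher than at sham in WT and 7 of 13 in het, beside 65.6 and 65.1% of all genes of the class, and the median log2 ratio of the members was 0.29 and 0.10, beside 0.28 and 0.24 over all genes, so the members as a group lay close to the background. Among the 10 in WT, col27a1b and col4a3bpa could pass the minimum only by reading higher at 3 dpa.

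The 3 endothelial-like clusters split this pattern. In cluster 15 (led by plvapb and cldn5b), col4a1 read 541, 1035 and 960 CPM in WT and 533, 835 and 1023 in het, and col4a2 read 422, 764 and 669 in WT and 406, 703 and 755 in het. Both were higher after injury in both genotypes, col4a1 by log2 ratios of 0.93 and 0.65 at 3 dpa and 0.83 and 0.94 at 7 dpa. In cluster 2 (led by spock3 and aqp8a.1), the largest, col4a1 lay between 274 and 345 CPM in all 6 libraries. There the gene that stood out was col6a4a, with 91.6, 252 and 91.1 CPM in WT and 98.6, 252 and 91.8 in het, a 3 dpa over sham log2 ratio of 1.46 (1.15 to 1.76) and 1.35 (1.06 to 1.65). Cluster 2 held 1202 of 1437 endothelial-like cells at sham in WT but 221 of 370 at 3 dpa, so the class values of the stages come from different mixes of clusters.

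The abundant fibrillar genes of types I and V (col1a1a, col1a1b, col1a2, col5a1 and col5a2a) were highest at 7 dpa in endothelial-like cells of both genotypes, while the scarcer col27a1b read highest at 3 dpa, on 20 UMIs in WT and 9 in het. For col1a1a the values were 79.8, 86.7 and 228 CPM in WT and 105, 116 and 504 in het, for col5a1 they were 107, 176 and 222 in WT and 133, 180 and 468 in het, and for col12a1a 0.549, 17.5 and 15.7 in WT and 2.38, 5.64 and 85.1 in het. The 7 dpa over sham log2 ratio was 1.52 (1.37 to 1.67) and 2.26 (2.13 to 2.39) for col1a1a, 1.05 and 1.81 for col5a1 and 4.84 (3.26 to 7.14) and 5.16 (4.37 to 6.08) for col12a1a. Past 2-fold and higher were 4 of 16 collagen genes in WT and 6 of 17 in het, against 4.89 and 5.80% of all genes. Each count includes col12a1a, which had 3 and 13 UMIs at sham in WT and het and could pass the minimum only by reading higher at 7 dpa. Het over WT at 7 dpa, 5 of 17 were past 2-fold and higher, against 2.95% of all genes, namely col1a1a at 1.14 (1.06 to 1.23), col1a1b at 1.08, col5a1 at 1.08, col12a1a at 2.43 (2.15 to 2.73) and the binding-protein symbol col4a3bpa at 1.03 (0.34 to 1.74). None of 15 was past 2-fold between genotypes at sham, and none of 11 at 3 dpa, where 6.88 and 7.09% of all genes were.

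This genotype difference was largest in 1 small cluster. Cluster 21 (led by edn2, vwf and postna) held 154 of 1862 endothelial-like cells in WT and 219 of 1405 in het at 7 dpa. The class values of the genotypes thus come from different mixes of clusters. Cluster 21 read 4371 and 7271 CPM of collagen at 7 dpa, a log2 ratio of 0.73 (0.69 to 0.78). Its col1a1a level was 815 and 1302 CPM and its col12a1a level 61.2 and 245. In cluster 2 the ratio of the sum was -0.10 (-0.15 to -0.05) and in cluster 15 it was 0.14 (0.05 to 0.22). In the het 7 dpa library, 3 cells held 14% of the collagen UMIs of endothelial-like cells, and the sum was 3222 CPM without them, and 1 cell held 28% of those of col12a1a. When the collagen genes were allowed into the clustering, the het over WT ratio of the sum at 7 dpa was 0.32 in place of 0.65 and that of 7 dpa over sham in het 0.66 in place of 1.15. The 11 epicardium or fibroblast markers had a median level in endothelial-like cells of 3.23% of their own class in WT and 5.81% in het at 7 dpa, with summed levels of 1297 and 1371 CPM and 0 and 1 of them at 0 UMIs. In cluster 21 the summed level of these markers was 1935 CPM and that of the mural markers 1061, against 1087 and 197 in cluster 2, and their part in the result was not tested. As a share of its level in epicardium- or fibroblast-like cells, col12a1a at 7 dpa in WT stood below the 3.23% median of the markers. In het at 7 dpa the share of col12a1a stood above the 5.81% median. How much of its level was background RNA was not tested.

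Mural-like cells, named from a list of pericyte and vascular smooth muscle markers that includes pdgfrb, notch3 and acta2, read 1649, 4987 and 5186 CPM of collagen in WT and 1672, 4996 and 4849 in het. The 2 genotypes lay close together at each stage, with het over WT log2 ratios of 0.02, 0.00 and -0.10. None of 13, 14 and 16 collagen genes was past 2-fold between genotypes at sham, 3 dpa and 7 dpa, where 12.8, 12.3 and 6.15% of all genes were. For col4a1 the values were 160, 688 and 941 CPM in WT and 104, 735 and 741 in het. For col4a2 they were 110, 578 and 655 CPM in WT and 70.9, 731 and 585 in het. Both were low at sham and high at both injured stages, at col4a1 log2 ratios of 2.11 (1.86 to 2.36) and 2.83 (2.59 to 3.07) at 3 dpa and 2.56 (2.34 to 2.79) and 2.84 (2.65 to 3.04) at 7 dpa. Type V and type XII followed, col5a1 with 53.7, 424 and 384 CPM in WT and 46.1, 601 and 294 in het, col5a3a with 14.2, 131 and 96.5 in WT and 14.9, 235 and 57.0 in het, and col12a1a with 1.58, 243 and 42.2 in WT and 2.48, 132 and 44.0 in het. The multiplexin col18a1b was late, with 31.6, 64.8 and 225 CPM in WT and 35.1, 78.4 and 252 in het. The exception was col6a4a, with 109, 116 and 51.0 CPM in WT and 171, 93.2 and 76.9 in het, a 7 dpa over sham log2 ratio of -1.10 (-1.61 to -0.60) and -1.16 (-1.50 to -0.83).

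Past 2-fold and higher in mural-like cells were 12 of 14 collagen genes at 3 dpa in WT, 10 of 14 in het, 12 of 15 at 7 dpa in WT and 12 of 16 in het, against 20.9, 21.9, 16.2 and 15.3% of all genes. Of these, 2, 2, 3 and 3 members in the same order could pass the minimum only by reading higher after injury, col12a1a and col5a3a at 3 dpa and, at 7 dpa, col27a1b and col16a1 with col5a3a in WT or col12a1a in het. Only col6a4a was past 2-fold and lower, at 7 dpa in each genotype, against 6.98 and 5.47%. These class values mix 2 clusters whose shares changed. Cluster 20, led by pdgfrb and kcne4, held 73, 50 and 198 cells in WT and 114, 49 and 224 in het, and cluster 23, led by rgs5a, myh11a and acta2, held 123, 38 and 28 in WT and 225, 35 and 60 in het. Within cluster 20 the sum read 3374, 8241 and 6516 CPM in WT and 4160, 7511 and 7582 in het, 7 dpa over sham log2 ratios of 0.95 (0.83 to 1.07) and 0.87 (0.77 to 0.96) in place of 1.65 and 1.54. For col4a1 in cluster 20 the ratios at 7 dpa were 0.72 (0.48 to 0.98) and 0.56 (0.35 to 0.79). In cluster 23 the sum read 1312, 1622 and 1495 CPM in WT and 1424, 1236 and 1117 in het, and col6a4a 123, 203 and 151 in WT and 188, 232 and 139 in het, above its 0 to 38.7 CPM in cluster 20. The lower col6a4a level of the class at 7 dpa thus went with the smaller share of cluster 23. With 88 and 84 mural-like cells at 3 dpa, 3 cells held 18.5 and 17.2% of the collagen UMIs there. The summed level of the epicardium or fibroblast markers was 915 CPM in cluster 20 and 443 in cluster 23, against 5688 in cluster 7. How much of the collagen RNA of mural-like cells was background RNA was not tested.

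**Figure D5:**
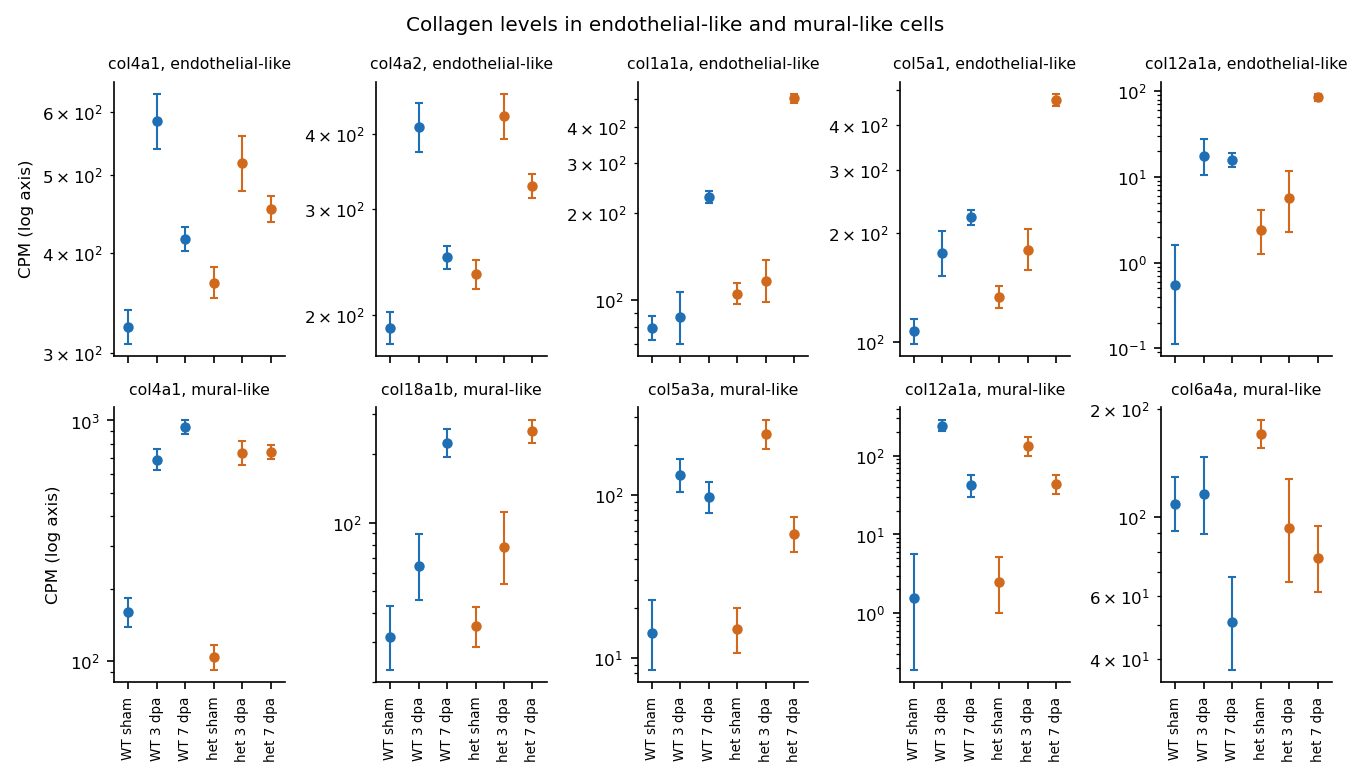
Levels of collagen genes in endothelial-like cells (upper row) and mural-like cells (lower row) in each library, in UMIs per 1000000 UMIs of the class on log axes, with exact 95% intervals for counting error. In endothelial-like cells col4a2 is highest at 3 dpa (411 in WT and 429 in het) and col1a1a at 7 dpa, and in mural-like cells col4a1 is lowest at sham (160 and 104).

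Cardiomyocyte-like cells held little collagen RNA, 22.6, 58.2 and 64.9 CPM over all genes in WT and 32.8, 54.5 and 66.0 in het. Basement-membrane genes held 47.5% of it, led by col4a1 with 6.42, 12.7 and 22 CPM in WT and 9.97, 11.3 and 20.4 in het. At 7 dpa over sham the log2 ratio of col4a1 was 1.78 in WT and 1.04 in het. Its level was 2.00 to 9.01% of that in epicardium- or fibroblast-like cells of the same library. In the injured libraries mural-like cells read higher for col4a1 than that class, so its share of the highest class was smaller there. The type I genes stood at 0.0794 to 0.168% of that class, and the median of the epicardium or fibroblast markers at 0.170 to 0.380%. The type I shares were thus below those of the markers, and these UMIs are not read as expression. How much of them was background RNA was not tested. The genes with the highest ratios over sham also had low shares, col5a1 at 0.350, 5.30 and 3.63 CPM in WT (0.120 to 0.219% of the epicardium- or fibroblast-like level over the 6 libraries) and col1a1b at 0.963, 5.24 and 2.82. Past 2-fold and higher were 8 of 13 collagen genes at 3 dpa and 10 of 12 at 7 dpa in WT, against 15.8 and 6.95% of all genes, and 5 of 10 and 8 of 10 in het, against 6.62 and 5.40%, counts that include these genes. Of the members counted, 5 and 5 in WT and 4 and 3 in het had so few UMIs at sham that they could pass the minimum only by reading higher, col5a1 with 12 and 9 UMIs and col12a1a with 16 and 12 among them, so the counts are no support for a rise. None of 6, 14 and 13 was past 2-fold between genotypes at sham, 3 dpa and 7 dpa, where 8.42, 5.84 and 3.69% of all genes were.

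Thrombocyte-like cells, the fish counterpart of platelets, carried mainly type IV collagen. Basement-membrane genes held 79.0% of their collagen UMIs, with col4a2 at 233, 272 and 286 CPM in WT and 227, 183 and 358 in het and col4a1 at 153, 272 and 165 in WT and 125, 177 and 204 in het. The type I gene col1a2 read 8.03 to 43.3 CPM in the same libraries. Here col4a2 exceeded col4a1, at a pooled ratio of col4a1 to col4a2 of 0.598 (0.536 to 0.668), while the ratio was 1.26 in epicardium- or fibroblast-like, 1.53 in endothelial-like, 1.29 in mural-like and 1.48 in cardiomyocyte-like cells. Per transcript end of col1a2 there were 8.14 of col4a1 in thrombocyte-like cells and 0.117 in epicardium- or fibroblast-like cells. Mural-like cells lay between them, with col4a1 at 406 CPM and col1a2 at 461. How much of the type IV RNA of thrombocyte-like cells was background RNA was not tested. Between genotypes, at sham col4a2 had a log2 ratio of -0.04, at 3 dpa one of -0.57 (-1.39 to 0.25) and at 7 dpa one of 0.32 (0.02 to 0.64). For WT its 7 dpa over sham ratio was 0.30 (-0.11 to 0.71), for het 0.66 (0.42 to 0.89).

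Smaller classes held other members. The 127 glia-like cells were highest for col15a1b, a multiplexin, at 55.3 CPM, for col14a1a, a fibril-associated collagen, at 39.8 and, on 6 UMIs, for col28a1b, a collagen of peripheral nerve in mammals, at 6.64, while col4a1 was their most abundant member at 66.4. Neutrophil-like cells led for col11a2 at 20.9 CPM, on 20 of its 372 UMIs, while macrophage-like clusters 6 and 9 held 29.0 and 26.1% of them. The high type I values of the neutrophil-like class (col1a2 at 182 CPM) and the erythrocyte-like class (88.8) came from single cells: 3 of 68 neutrophil-like cells held 96.3% of the class's collagen UMIs at 3 dpa in WT, and 3 of 275 erythrocyte-like cells held 95.4% at 7 dpa in het. In T- or NK-like cells the highest member was col1a1b at 20.2 CPM and in B-like cells col4a1 at 24.2, but 1 cell held 27 of the 59 UMIs of col4a1 in B-like cells, and without these its level was 13.1, below col1a1b at 23.4.

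Some collagens had a large share of their UMIs in a pair of unnamed clusters. Cluster 14, led by angptl7, rspo1 and cyp26b1, held 91.0% of all UMIs of col9a2, 80.0% of col9a3 and 62.4% of col9a1a, the 3 chains of the cartilage-type fibril-associated type IX, and 29.7% of those of col2a1b, the type II chain whose fibrils type IX coats in cartilage. Its col9a2 level was 40.5, 99.5 and 32.0 CPM in WT and 67.8, 74.1 and 47.0 in het, and its col2a1b level 23.7, 47.8 and 22.8 in WT and 37.7, 35.7 and 22.2 in het. Both genes were present in all 6 libraries, from 67 cells at 3 dpa in WT to 392 at sham in het. Cluster 5, of 4216 cells and closest to cardiomyocytes by its markers (70276 CPM in sum, with mural markers at 2409), held 44.7% of all col18a1a UMIs. These were 2469 of 5524 UMIs, beside 2498 in epicardium- or fibroblast-like cells. The pooled col18a1a level was lower in cluster 5, at 34.5 CPM against 41.1. In unnamed cluster 25 it was above both, at 58.8 CPM. By library, the col18a1a level of cluster 5 was 38.0, 37.2 and 19.4 CPM in WT and 44.1, 34.6 and 32.5 in het. There col1a1b read 21.2, 13.7 and 55.8 CPM in WT and 36.4, 12.8 and 46.4 in het, without its chain partners, since col1a2 read 0.314, 4.32 and 10.2 in WT and 1.06, 3.31 and 7.06 in het. In epicardium- or fibroblast-like cells the 2 genes were close to each other in every library, as the values above show.

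The enzymes and chaperones that make collagen were examined from a list of 46 symbols, 42 of which are in the feature list. At 3 dpa over sham in epicardium- or fibroblast-like cells, 24 of 33 with enough UMIs were at least 2-fold higher in WT and 1 lower, and 22 of 33 higher and 2 lower in het, with medians of 1.66 and 1.47, beside the 43.8 and 40.6% of all genes given above and medians over all genes of 0.81 and 0.70. At 7 dpa 15 of 32 were higher in WT and 10 of 32 in het, none lower, with medians of 0.98 and 0.57, beside 20.2 and 13.2% of all genes. The highest at 3 dpa by the smaller ratio of both genotypes were creb3l1, a transcription factor of collagen secretion, with 2.28, 23.3 and 1.63 CPM in WT and 2.43, 21.2 and 2.14 in het, loxa, a lysyl oxidase that cross-links fibrils, with 9.44, 74.5 and 11.2 in WT and 1.70, 82.1 and 14.4 in het, and fkbp10b, a collagen chaperone, with 13, 97.2 and 29.5 in WT and 11.7, 100 and 30.9 in het. All 3 were at least 3-fold lower at 7 dpa than at 3 dpa in both genotypes, where col1a1a and col1a2 kept their level. Both creb3l1, in either genotype, and loxa, in het, had so few UMIs at sham that they could pass the minimum only by reading higher at 3 dpa. The counts of partner genes at 3 dpa include them. At 7 dpa plod2, a lysyl hydroxylase, was among the highest, with 35.5, 185 and 105 CPM in WT and 26.3, 157 and 98.6 in het. The exception was pcolcea, an enhancer of procollagen cleavage, with 727, 208 and 490 CPM in WT and 662, 221 and 601 in het, 3 dpa over sham log2 ratios of -1.80 and -1.59, while its relative pcolce2b read 68.1, 257 and 211 in WT and 33.1, 236 and 152 in het. Of 12 collagen receptor genes, 5 had enough UMIs, and 2 of them were at least 2-fold higher at 3 dpa in each genotype, among them the integrin gene itgb1b with 13.4, 51.7 and 45.0 CPM in WT and 14.3, 42.3 and 36.5 in het, while itga1 was at -0.35 and -0.74. Between genotypes 2 of 28 partner genes were at least 2-fold higher in het at sham (serpinh1b and serpinh1a) and 2 at least 2-fold lower (loxl2a and pcolce2b), beside 2.26 and 4.04% of all genes. None of 33 was past 2-fold at 3 dpa and 1 of 32 at 7 dpa (serpinh1b), beside 4.25 and 3.24%.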

How the data were processed

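Each library's deposited matrix gives whole UMI counts for every gene in every barcode, as its header line shows. The submitters' processing notes name Cell Ranger 3.0.2, GRCz11 and Seurat 3.1.4. The annotation release and the rule for calling barcodes cells were not given in the sources used here. The collagen genes, gene lists and tests were chosen with earlier results of these data known.

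Cells with at least 200 genes, 500 UMIs and at most 30% mitochondrial UMIs were kept. Likely doublets, scored with Scrublet per library, were removed at 0.8% for every 1000 barcodes, 7.56 to 11.9% of a library. Counts were scaled to 10000 a cell and logged. The 2000 most variable genes without collagens gave 30 principal components and 15 neighbours, clustered by the Leiden method at resolution 1 into 35 clusters (Python 3.11.15, numpy 2.4.6, scipy 1.17.1, pandas 2.3.3, scanpy 1.11.5, scikit-learn 1.9.0, leidenalg 0.10.2, igraph 0.11.9, matplotlib 3.10.9). A cluster took the class of its markers at a mean log2 fold of at least 0.75, a lead of 0.5 on the class that came second and 3 or more markers with a log2 fold of at least 1 that were found in 10% of its cells. Names were withheld where the leading genes were markers of another class. Earlier work on these data had chosen these limits with its clusters in view. The marker ighm and the partner symbols plod1b, colgalt1a, colgalt1b and loxb were not in the feature list used here.

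UMIs were summed per class and library. CPM has an exact Poisson interval and a log2 ratio an exact conditional binomial one, both 95%. Ratios needed 50 UMIs over both libraries and 50 cells in each, and a library at 0 UMIs was set to a floor of 3. On counts simulated with counting error alone, the model behind the intervals, 99.0 to 100% of 200 genes changed by known folds were recovered. There 94.9 to 96.7% of the intervals held the true value. The planted folds were larger than 2-fold, so this checks the calculation and not the spread between libraries or cells. TMM factors came from edgeR 4.0.16 in R 4.3.3, used for scaling only. Named are the 12 members with the most UMIs, the highest of each family and of each class of at least 100 cells, and the 3 highest and 3 lowest members in 4 classes and partners by the smaller ratio of both genotypes or both injured stages. The others named were chosen after their values were seen. Alternatives were no doublet removal, a stricter cell filter (1000 UMIs, 20% mitochondrial), collagen genes kept for clustering, resolution 0.5, TMM, equal cluster weights, a class total without collagens, and minimums of 10 UMIs or of 1 UMI with 1 CPM added.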

Additional observations from a re-analysis of the deposited data

How the results depend on the processing

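All values here are for epicardium- or fibroblast-like cells. The log2 ratios of the collagen sum over sham, 2.18 and 1.94 in WT and 1.40 and 1.28 in het (3 and 7 dpa), kept their direction under every alternative run. TMM scaling gave 1.69 and 1.77 in WT and 1.00 and 1.20 in het, and fixed weights for the clusters present at every stage gave 1.97 and 1.50 in WT and 1.36 and 0.90 in het. Without doublet removal the 3 dpa values were 2.25 in WT and 1.46 in het, and the 7 dpa value in het was 1.22. With the collagen genes kept for clustering the 7 dpa value in het was 1.30. The het over WT ratio at sham, 0.65, was 0.60 with TMM. Those at 3 and 7 dpa, -0.13 and -0.01, were -0.12 and -0.02 without doublet removal, -0.09 and 0.03 with TMM and 0.05 and 0.05 with fixed cluster weights, and the 7 dpa value was 0.01 with the collagen genes kept for clustering, so they give no direction.

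Of collagen genes past 2-fold between genotypes there was 1 at sham with 50 UMIs, 2 without doublet removal, 4 with 10 UMIs and 3 with 1 UMI and 1 CPM added. With 10 UMIs there were 7 at 3 dpa, of which 6 were lower in het, and 3 at 7 dpa, of which 2 were lower, where there had been 0. The share of all genes past 2-fold was not counted under the alternatives. Counts under them are thus not read as a result about the collagen genes. With fixed cluster weights the 3 dpa over sham ratios in WT of col4a1, col4a2 and col18a1b turned to 0.33, 0.45 and 0.51, all 18 collagen genes past 2-fold were then higher, and col18a1a at 7 dpa over sham in het turned to -0.03. Clusters 19 and 22 have no weight in that setting. Of 1134 values of 162 single-gene results under the alternatives, 961 lay within the main counting interval, 169 outside it, and 4, named above, had a main ratio past 2-fold and changed sign. Of the values within or outside the interval, 34 also changed sign, from main log2 ratios of at most 0.55 in size, 11 of them over sham and 23 het over WT.

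No paired analysis was possible because each group held 1 library and leaving out a replicate would have left a group empty. Ratios of genes near the 50 UMI minimum have wide intervals, and a library with fewer UMIs in the class detects scarce members less well. Het had fewer UMIs in the class than WT at 3 dpa, 11395912 against 17473551. It had more at sham, 4112667 against 3070491, and at 7 dpa, 13090651 against 11676556, although over all cells het had fewer UMIs a cell.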

Other observations

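Some values of collagen partner genes in epicardium- or fibroblast-like cells stood apart between the genotypes at sham, chosen after their values were seen. The chaperone gene serpinh1b, which folds procollagen, read 21.5, 192 and 58.6 CPM at sham, 3 dpa and 7 dpa in WT and 108, 171 and 118 in het. At sham its het over WT log2 ratio was 2.33 (1.96 to 2.73), for the 3 dpa pair it was -0.17 (-0.25 to -0.09), and for the 7 dpa pair 1.01 (0.87 to 1.14). The lysyl oxidase-like gene loxl2a went the other way, with 164, 164 and 335 CPM in WT and 30.4, 172 and 172 in het, ratios of -2.43 (-2.72 to -2.14), 0.07 (-0.01 to 0.15) and -0.96 (-1.03 to -0.88). The pair thus differed between genotypes at sham and 7 dpa and lay close together at 3 dpa. The matrix protein gene sparc, abundant in all 6 libraries, read 1310, 1405 and 2847 CPM in WT and 1624, 1628 and 2806 in het, highest at 7 dpa in both.

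Cluster 14, the unnamed cluster with type IX and II collagens, also had type I, V and VI genes, with a collagen sum of 734, 1770 and 1136 CPM in WT and 1417, 1946 and 789 in het. At sham the het over WT log2 ratio of that sum was 0.95 (0.88 to 1.02), for the 3 dpa pair it was 0.14 (-0.01 to 0.28), and for the 7 dpa pair -0.53 (-0.62 to -0.44). Het was thus above WT at sham and below it at 7 dpa. Its col6a4a level was higher at 3 dpa than at sham in both genotypes, by log2 ratios of 2.04 (1.58 to 2.50) and 1.93 (1.53 to 2.3).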
